A study of Zea mays with 4 samples.

Results

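Asparagine synthetase and glutamate dehydrogenase transcripts were followed in maize leaves grown with high or low nitrogen supply. The genes were taken from a list of 6 maize gene IDs, 4 for asparagine synthetase and 2 for glutamate dehydrogenase, and the rows that carry these IDs were read from the deposited table. Of the 6 listed IDs 5 were found, all 4 asparagine synthetases and 1 glutamate dehydrogenase, among 43110 loci in all. The missing ID is GRMZM2G178415. RefSeq gives its symbol as gdh1, and the table holds a row named GDH1 on the same chromosome, which is described beside the 5 members and not counted among them.

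The samples were mature tissue of the sixth leaf, which was still expanding by the study's methods. The plants were of the inbred line B73, the line behind the maize reference genome, grown in hydroculture. High nitrogen (HN) plants received 4 mM nitrate throughout. Low nitrogen (LN) plants were started in the same solution and moved to 0.04 mM nitrate once the third leaf was fully expanded, with calcium chloride added to keep calcium equal. There were 2 libraries per treatment, and how many plants stand behind a library is not given in the sources used here, so the p-values measure only the spread between these libraries.

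Asparagine synthetase moves the amide nitrogen of glutamine onto aspartate. The product, asparagine, carries much nitrogen per carbon and is a main form in which plants store nitrogen and move it between organs, and in maize it is made by a small gene family. Glutamate dehydrogenase catalyses the reversible release of ammonium from glutamate. In leaves it is known mainly as a route by which glutamate carbon is returned to respiration, and it is often used as a marker of leaf ageing.

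Levels are given as FPKM, that is, fragments scaled by the length of the transcript and by the size of the library, so genes can be set side by side per length. The smallest FPKM steps of low loci gave a relative sequencing depth of 1 for HN replicate 1, 1.14 for HN replicate 2, 1.44 for LN replicate 1 and 1.74 for LN replicate 2. These steps give the scaling applied to each library, so the LN libraries were the deeper ones only if that scaling followed total fragments. This was not tested. The FPKM sums went the other way, at 1798410 and 1764400 in HN and 1141130 and 1043300 in LN. Total fragments are unknown from FPKM, so no counting intervals are given. Leaf identity was checked on genes of C4 leaves. The phosphoenolpyruvate carboxylase gene pep1 ran from 2630 to 19557 FPKM, the pyruvate orthophosphate dikinase gene ppdk1 from 7886 to 18089 FPKM and rubisco activase (rca1) from 875 to 2260 FPKM. The root gene rtcs1 was at 0 in all 4 libraries, and no zein gene of the seed passed 3.73 FPKM. All 3 leaf genes were lower in both LN libraries, and their part in the differences below was not tested.

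The dominant gene for asparagine synthetase differed by 1.24 times in mean FPKM between the treatments. The weakly expressed copies had larger ratios, at levels near the floor, while in FPKM units the dominant gene differed most of the family. GRMZM2G074589 (asn1) was somewhat higher in LN, GRMZM2G093175 (asn2) was barely detected in HN and higher in LN, and GRMZM2G053669 (asn3) and GRMZM2G078472 were lower in LN. Both glutamate dehydrogenase transcripts were modestly higher in LN. None of the differences that were tested passed the test over all loci, and asn2 and GRMZM2G078472 were too low to be tested.

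Positions are those of the B73 RefGen_v3 build. GRMZM2G074589 spans 32468024 to 32477360 on chromosome 9, and it is the asparagine synthetase that this leaf expressed most. It had 32.5 and 39.2 FPKM in HN replicates 1 and 2, and 43.8 and 44.9 FPKM in LN replicates 1 and 2. The 2 LN libraries were close to each other and above both HN libraries, and HN replicate 2 stood closer to them than to HN replicate 1. The means were 35.8 ± 4.79 FPKM (SD, n = 2) in HN and 44.3 ± 0.792 FPKM (SD, n = 2) in LN, 1.24 times higher in LN. On log2(FPKM + 1) the difference was 0.30 with a standard error of 0.23 and a 95% interval from -0.28 to 0.89 (limma adjusted p = 0.502), and it was 0.17 without HN replicate 1. Among the loci above 0 it stood at the 83.8th and 86.1th percentile in HN, and at the 88.8th and 89.5th percentile in LN.

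GRMZM2G053669 had the largest difference of the tested members. RefSeq gives it the symbol asn3, and it spans 45118780 to 45122813 on chromosome 1. There were 2.69 and 1.35 FPKM in HN and 0.267 and 0.159 FPKM in LN. Both LN libraries were far below both HN libraries, and HN replicate 1 stood at about double the level of HN replicate 2. The means were 2.02 ± 0.951 FPKM (SD, n = 2) in HN and 0.213 ± 0.0765 FPKM (SD, n = 2) in LN, 9.50 times higher in HN. The log2 fold change was -1.28 with a standard error of 0.37 and a 95% interval from -2.24 to -0.32 (limma unadjusted p = 0.0184, adjusted p = 0.175). At these low levels the pseudocount of 1 shrinks the fold change, which was -2.71 with a pseudocount of 0.1 (adjusted p = 0.203). The gene passed the filter on low values through its HN libraries alone, so its place among the tested loci already required a higher HN level. Multiplied by relative depth, which makes the values proportional to fragments, the HN libraries stood at 2.69 and 1.54 and the LN libraries at 0.384 and 0.276, so the order held on that scale too.

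GRMZM2G093175, with the RefSeq symbol asn2, spans 229507263 to 229511632 on chromosome 3 and ran the opposite way. It was listed at 0 FPKM in HN replicate 1 and at 0.216 FPKM in HN replicate 2, and it had 1.37 FPKM in LN replicate 1 and 0.392 FPKM in LN replicate 2. Both LN libraries were above both HN libraries, but LN replicate 1 alone held most of the signal. Times relative depth the HN libraries stood at 0 and 0.246 and the LN libraries at 1.97 and 0.682. It had 1 FPKM or more in a single library and was not tested. Its log2 difference of 0.72 became 0.34 without LN replicate 1.

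GRMZM2G078472, an asparagine synthetase by the list alone since no RefSeq symbol was found for it, spans 138037953 to 138044999 on chromosome 9. Its levels were 0.471 and 0.409 FPKM in HN and 0.282 and 0.147 FPKM in LN. All 4 values lay below the filter of 1 FPKM, and both LN libraries were below both HN libraries. The mean in HN was 2.05 times that in LN, at levels below that at which loci were tested. Times relative depth, the LN libraries (0.406 and 0.255) were still below the HN libraries (0.471 and 0.467), though LN replicate 1 came close to them.

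**Figure D1:**
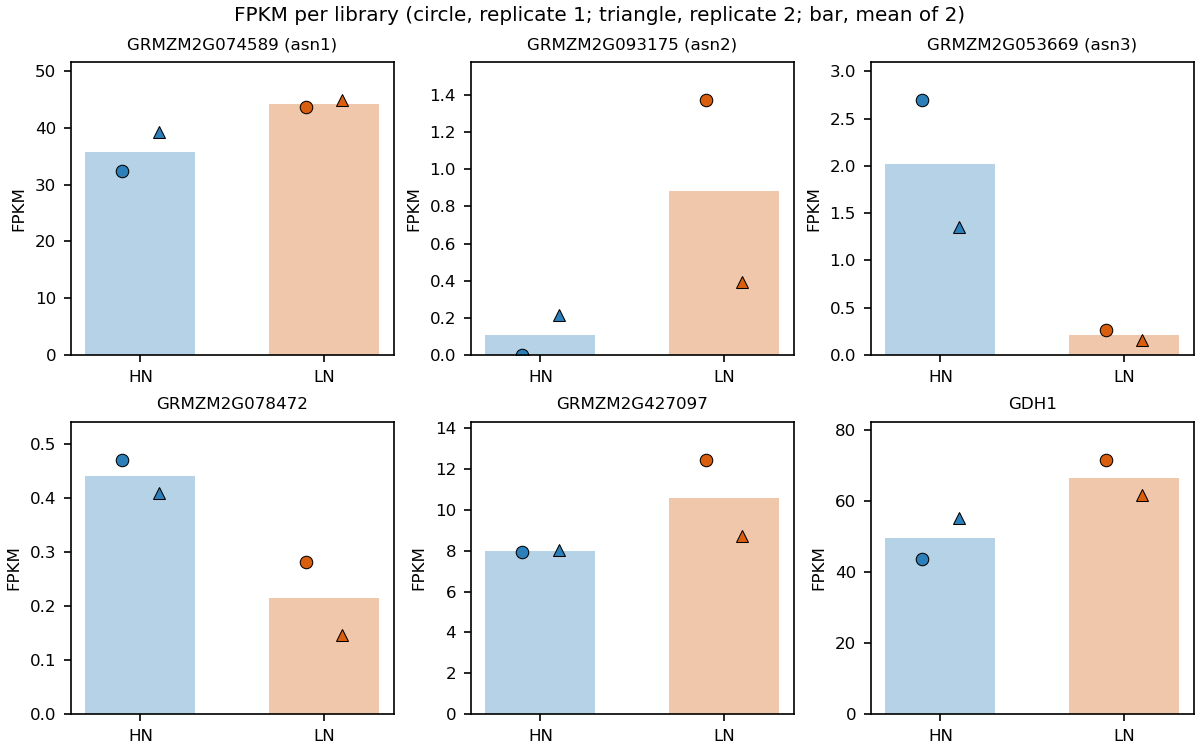
FPKM (vertical axes, linear and starting at 0, scaled per gene) of the 5 members and of GDH1 in the HN and LN leaves, with 1 symbol per library and bars at the mean of 2. In each panel the 2 LN symbols lie on the same side of the 2 HN symbols, by a wide margin for asn3 (1.35 or more FPKM against 0.267 or less) and by a narrow one for asn1 and GRMZM2G427097.

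In all 5 members the treatments did not overlap, 3 with LN above and 2 with LN below HN. This is also common elsewhere in the table. Of the loci above 0 in at least 1 library, LN lay above HN at 25.3% and below HN at 22.5%. Testing was limited to the 22889 loci that reached 1 FPKM in 2 libraries or more, where the shares were 26.6% and 27.2%, against 2 and 1 of the 3 tested members. Loci whose adjusted p lay under 0.05 and whose log2 fold change exceeded 1 in size are referred to as called, and there were 123 of them, 0.537% of those tested. With edgeR and the same thresholds the study reported many more differentially expressed genes, so the lack of a call here does not show the lack of a change. Without HN replicate 1 the number of called loci was 16, and without any one of the other libraries it was 0. None of the 3 tested members was called by limma. One of the 3, asn3, had an unadjusted p under 0.05 (limma), as did 20.1% of all tested loci. Since asn3 passed the filter through its HN libraries alone, its direction was set by that and lends these counts no support. For a single value, the exact permutation test on 2 and 2 libraries reaches no lower than p = 0.333.

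The make-up of the asparagine synthetase family was then compared within each library, where the scaling between libraries plays no part. Summed over the 4 genes, asparagine synthetase stood at 35.6 and 41.2 FPKM in HN and at 45.7 and 45.6 FPKM in LN. The share of asn1 in this sum was 91.1% and 95.2% in HN and 95.8% and 98.5% in LN. The share of asn3 was 7.56% and 3.27% in HN against 0.584% and 0.348% in LN. So asn1 made up over 91% of the family in every library, and the share of asn3 was several times lower in LN (exact permutation test, two-sided, p = 0.333 for either share).

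Among the 3 minor copies the order of asn2 and asn3 was exchanged, at levels near the floor (0 to 2.69 FPKM). Shares of 1 sum are tied together, so the shifts of asn2 and asn3 are not separate results. Of their summed FPKM, asn3 held 85.1% and 68.3% in HN and 13.9% and 22.8% in LN. In turn, asn2 held 0% and 10.95% in HN and 71.4% and 56.2% in LN, and GRMZM2G078472 held between 14.7% and 21.0% in all 4 libraries. The ratio of asn2 to asn3 was 0 and 0.160 in HN and 5.14 and 2.47 in LN (exact permutation test, two-sided, p = 0.333, the smallest this design allows). This ratio was chosen after the values were seen. The sum of the 3 minor copies was 3.16 and 1.97 FPKM in HN and 1.92 and 0.697 FPKM in LN, where HN replicate 2 and LN replicate 1 nearly coincide.

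**Figure D2:**
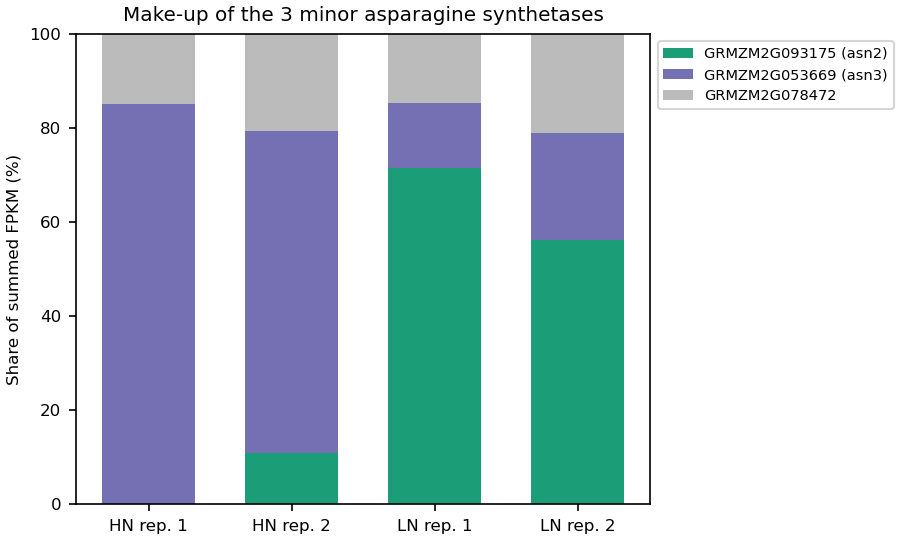
Share (%) of asn2, asn3 and GRMZM2G078472 in their summed FPKM, with 1 stacked bar per library. asn3 fills most of both HN bars (85.1% and 68.3%) and asn2 most of both LN bars (71.4% and 56.2%), while the GRMZM2G078472 segment stays between 14.7% and 21.0%.

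Of the glutamate dehydrogenases, GRMZM2G427097 spans 134077909 to 134083966 on chromosome 10. Its levels were 7.95 and 8.02 FPKM in HN and 12.5 and 8.73 FPKM in LN. The 2 HN libraries were nearly equal, LN replicate 2 stood just above them, and LN replicate 1 accounted for most of the difference. The means were 7.99 ± 0.0516 FPKM (SD, n = 2) in HN and 10.6 ± 2.64 FPKM (SD, n = 2) in LN. The log2 fold change was 0.35 with a standard error of 0.26 and a 95% interval from -0.31 to 1.01 (limma adjusted p = 0.497), and it was 0.11 without LN replicate 1.

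GDH1, the row that corresponds by symbol to the missing ID, spans 287360596 to 287367735 on chromosome 1 and was the most abundant of all 6 transcripts. It had 43.6 and 55.3 FPKM in HN and 71.6 and 61.6 FPKM in LN. Both LN libraries exceeded both HN libraries, and the replicates of each treatment spread about equally. The means were 49.5 ± 8.28 FPKM (SD, n = 2) in HN and 66.6 ± 7.11 FPKM (SD, n = 2) in LN, 1.35 times higher in LN. The log2 fold change was 0.43 with a standard error of 0.25 and a 95% interval from -0.21 to 1.06 (limma adjusted p = 0.397), and it was 0.26 without HN replicate 1.

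The proportions of the glutamate dehydrogenase pair were compared in the same way. GDH1 held 84.6% and 87.3% of the summed FPKM of the pair in HN and 85.2% and 87.6% in LN, so the groups overlapped. The exact permutation test (two-sided, p = 0.667) cannot show that the shares are alike in a design of this size, and the sign of the difference turned, to -0.95 percentage points without HN replicate 1 and -0.77 without LN replicate 2. The sum of the pair was 51.6 and 63.3 FPKM in HN and 84.1 and 70.3 FPKM in LN. Summed asparagine synthetase relative to summed glutamate dehydrogenase was 0.691 and 0.651 in HN and 0.543 and 0.648 in LN. HN replicate 2 and LN replicate 2 were almost equal here (exact permutation test, two-sided, p = 0.333).

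The order of the levels was the same in all libraries at the top, with GDH1 above asn1 and asn1 above GRMZM2G427097, and these 3 did not overlap each other within a treatment. In HN, asn3 followed, then GRMZM2G078472 and asn2, each below the one before in both libraries. In LN, asn2 came next, and asn3 and GRMZM2G078472 overlapped (0.267 and 0.159 against 0.282 and 0.147 FPKM), so their order there cannot be given.

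The bounds that the table gives for GDH1, GRMZM2G427097 and GRMZM2G078472 are each shared by another locus. For GDH1 this was GRMZM2G478798, with 13.3 and 18.0 FPKM in HN and 19.2 and 19.8 FPKM in LN, again higher in both LN libraries. For GRMZM2G427097 it was GRMZM2G427106, which did not pass 0.702 FPKM in any library, and for GRMZM2G078472 it was GRMZM2G078469, at 0 in 3 libraries and 0.137 FPKM in LN replicate 1. Whether fragments were divided between loci of the same bounds was not tested. No other locus overlapped asn1, asn2 or asn3.

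The scaling of the libraries changed the size of the differences. When every library was brought to the same FPKM sum, the median of all tested loci went from -0.01 to 0.59 on the log2 scale. Relative to that median, asn1 was at 0.40, asn3 at -1.60, GRMZM2G427097 at 0.40 and GDH1 at 0.53. As deposited, the same differences from the median were 0.32, -1.27, 0.36 and 0.44. The untested asn2 went from 0.73 to 0.33 and GRMZM2G078472 from -0.23 to -0.68. Quantile normalization left the median at 0.0038, and relative to it asn1 was at 0.44, asn3 at -1.38, GRMZM2G427097 at 0.32 and GDH1 at 0.61. All 4 tested genes kept their sign under each setting that could be fitted.

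**Figure D3:**
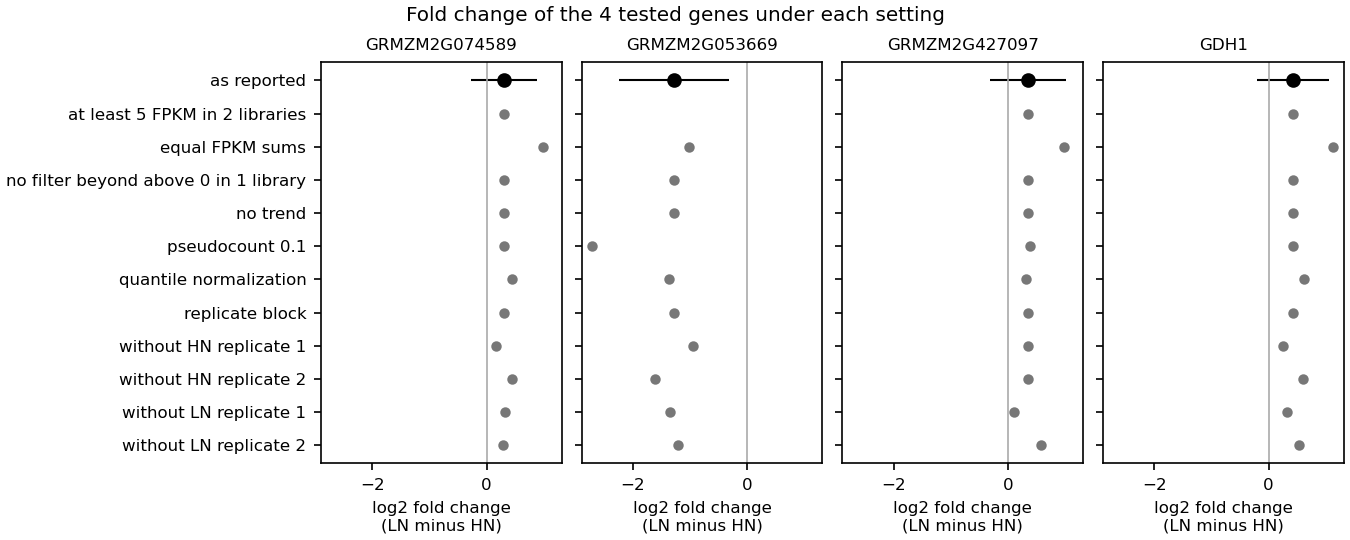
Log2 fold change, LN minus HN, of asn1 (GRMZM2G074589), asn3 (GRMZM2G053669), GRMZM2G427097 and GDH1 under each processing setting (rows), with the reported value in black and its 95% interval as a line. All points of asn3 lie left of 0, and all points of the other genes lie right of 0 and close to it, except at equal FPKM sums, where they reach 0.99 for both asn1 and GRMZM2G427097 and 1.12 for GDH1. The pseudocount of 0.1 gives the lowest value of asn3, at -2.71.

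Enzymes on either side of these genes were compared next. Glutamine synthetase makes the glutamine that asparagine synthetase uses as a nitrogen donor, and 7 of its loci were tested. Of these, 3 were lower and 2 were higher in both LN libraries. Only 1 was called, where 0.537% of all tested loci were called. The median log2 fold change was -0.25, against -0.01 over all tested loci. The called locus was the GLN2 row on chromosome 1, from 53.2 and 67.7 FPKM in HN to 0.583 and 0.196 FPKM in LN (log2 fold change -5.47, limma adjusted p = 0.00643). The GLN2 row on chromosome 10 had 424 and 429 FPKM in HN against 203 and 126 FPKM in LN, and was not called (log2 fold change -1.41, adjusted p = 0.134). This row and the ratios to it were chosen after their values were seen. At the other end of the list, gln5 had 178 and 330 FPKM in HN and 510 and 725 FPKM in LN (log2 fold change 1.32, adjusted p = 0.182). The level of asn1 relative to GLN2 on chromosome 10 was 0.0765 and 0.0915 in HN and 0.215 and 0.355 in LN, and that of GDH1 was 0.103 and 0.129 in HN and 0.352 and 0.487 in LN. Both relative levels were thus higher in each LN library than in either HN library, against a GLN2 row that was itself lower in LN. The summed FPKM of the 7 glutamine synthetase loci was 1051 and 1362 in HN and 1352 and 1349 in LN, so the groups overlapped. The higher relative levels thus hold for this GLN2 row, and ratios to the sum were not taken. Ferredoxin-dependent glutamate synthase (GLSF), which makes glutamate from glutamine, had 215 and 138 FPKM in HN and 76.2 and 103 FPKM in LN, and was not called (log2 fold change -0.95, adjusted p = 0.213).

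Aspartate is the other substrate of asparagine synthetase. Of the 2 listed aspartate aminotransferase genes, which make it from oxaloacetate and glutamate, both were lower in both LN libraries and neither was called. GRMZM5G836910, the more abundant, had 1053 and 648 FPKM in HN and 287 and 215 FPKM in LN (log2 fold change -1.73, adjusted p = 0.122). Of the 4 listed alanine aminotransferase genes 3 were lower and 1 was higher in both LN libraries. Their log2 fold changes ran from -3.63 at GRMZM5G828630 to 1.68 at GRMZM2G124353, and none was called. Of the 6 other listed genes of aspartate family synthesis 4 were lower and 2 were higher in both LN libraries. Only 1 was called, where 0.537% of all tested loci were called. It was GRMZM2G050570, a threonine synthase by similarity to Arabidopsis, from 150 and 120 FPKM to 24.9 and 23.6 FPKM (log2 fold change -2.42, limma adjusted p = 0.0363). GRMZM2G112149, a methionine synthase by similarity to Arabidopsis, was at the other end with a log2 fold change of 1.92 (adjusted p = 0.144).

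Aspartate kinase opens the branch that competes with asparagine for aspartate. It was tested at 4 loci, with a median log2 fold change of 1.01, and none was called. The largest value was 1.13 at GRMZM2G389303 (19.7 and 24.1 FPKM in HN, 67.5 and 35.6 FPKM in LN), and the smallest was 0.09 at ASK2. RefSeq assigns 3 of the 4 loci to a single gene, AKHSDH1, so they are not separate measurements.

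Glutamate, the substrate of glutamate dehydrogenase, is also used by glutamate decarboxylase. Of the 3 genes listed for that enzyme 2 were lower and 1 was higher in both LN libraries. Their log2 fold changes ran from -1.57 at GRMZM2G017110 to 2.26 at GRMZM2G355906, and none was called. The 4 listed genes of nitrate metabolism split evenly, from -2.52 at GRMZM2G568636 (the nitrate reductase gene NNR1 in RefSeq) to 1.85 at GRMZM2G076723, again with no call. The aminotransferase, aspartate family, decarboxylase and nitrate genes come from lists that the study drew up from its own calls on these same libraries. Genes of these classes that it did not call are left out. Their counts are thus not independent evidence of a change and do not describe whole families.

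**Figure D4:**
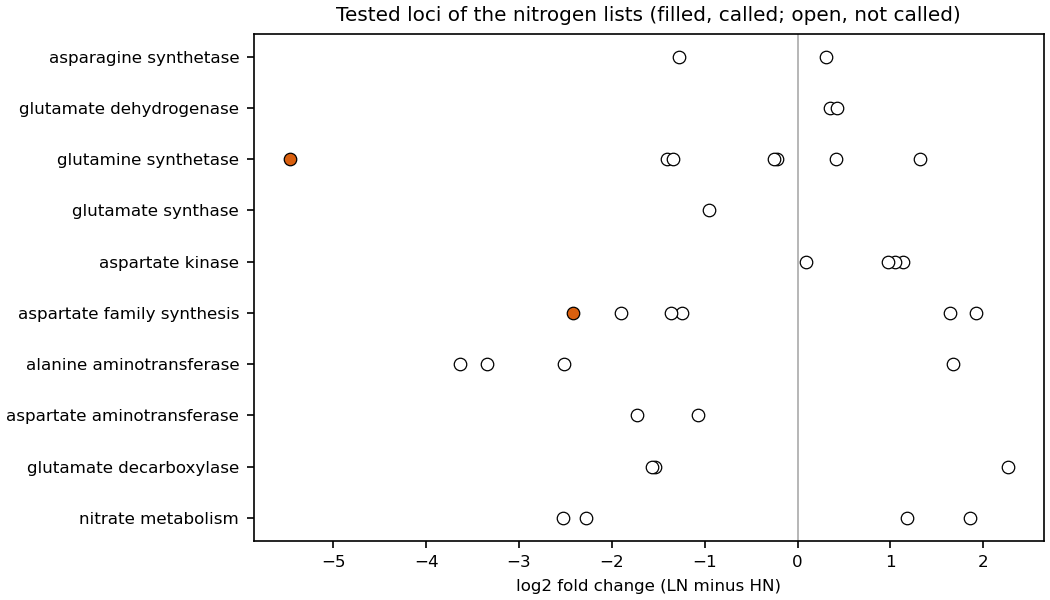
Log2 fold change, LN minus HN, of each tested locus of asparagine synthetase, glutamate dehydrogenase and the neighbouring enzyme lists, with called loci filled and others open. The asparagine synthetase and glutamate dehydrogenase loci lie between -1.28 and 0.43. The 2 filled points are GLN2 on chromosome 1 (-5.47) and threonine synthase (-2.42). The aminotransferase, aspartate family, decarboxylase and nitrate lists hold genes that the study called on these libraries. Their wide spread was thus set by that choice and is no measure for the members.

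The tested loci with a gene symbol were ranked by how close their profile over the 4 libraries came to that of a member, as the Euclidean distance between log2(FPKM + 1) values centred on their own mean. Near to asn1 were HSF29, with a distance of 0.0591, and aoc1 with 0.0598. Nearest to GRMZM2G427097 were ZCAX2 with 0.0772, pac1 with 0.115 and mTRF12 with 0.118. Such profiles are not particular to these genes, as 56 of the 1657 loci compared lay within 0.2 of asn1 and 22 within 0.2 of GRMZM2G427097. With 4 libraries the measure describes these values alone.

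In leaf tissue not separated by cell type, fewer cells of a type and less RNA per cell cannot be told apart, which applies to every difference given here.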

How the data were processed

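RNA-seq libraries of maize leaf 6 (2 HN, 2 LN) were analysed. The authors used TopHat2 for alignment to B73 RefGen_v3 and StringTie for assembly, and the deposited table gives FPKM per locus and library. Versions are not given in the sources used here. The authors tested with edgeR, which needs counts and was not used here.

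Repeated rows were kept once. Log2(FPKM + 1) was fitted across all loci with limma 3.58.1 in R 4.3.3 (trend, no block), with Benjamini-Hochberg adjustment over the 22889 loci having at least 1 FPKM in at least 2 libraries. The script was tested on simulated data. Shares and ratios within libraries were compared with exact permutation tests (Python 3.11.15, scipy 1.17.1). Locus starts are written from 1. Samples were grouped by title, and columns were matched to samples through the library descriptions.

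The members, lists and tests were chosen with earlier results of these data known. Named were all members, the 3 symbols nearest in profile to the member of each family with the highest mean, and the largest and smallest change of each list (exceptions are stated). One of the symbols nearest in profile is not reported here. Neighbouring lists came from symbols in the table or RefSeq (Zm-B73-REFERENCE-NAM-5.0, names only, which holds 5 of the 6 IDs) and from classes of the supplementary tables. No gene matched the planned asparaginase list, and several planned markers were not found under their symbols and were dropped. No sequences are shown, as none were in the files used. Alternatives were another pseudocount, 2 filters, 2 scalings, a call without a minimal fold change, a variance prior without trend, the replicate block, sums over all loci of a name and each library left out.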

Additional observations from a re-analysis of the deposited data

How the results depend on the processing

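No member was called under any of the 12 alternatives that bear on calls, and every member kept its direction. GRMZM2G093175 and GRMZM2G078472 entered a test only without the filter, so they could not be called under the other settings. Shares of the asparagine synthetases and the ratio of both families kept their sign with each library left out, and the share of GDH1 in its pair did not (-0.95 to 1.81 percentage points). Over the whole table, 123 loci were called, 60 at equal FPKM sums, 23 of 31737 without the filter, and 0 to 16 with 1 library left out. The differences of the untested members moved by more than their replicate spread in 3 cases: GRMZM2G093175 from 0.72 to 2.26 with a pseudocount of 0.1, and GRMZM2G078472 from -0.25 to -0.81 with that pseudocount and to -0.086 at equal FPKM sums. The adjusted p ran from 0.0633 to 0.902 for GRMZM2G074589, from 0.108 to 0.597 for GRMZM2G053669 and from 0.064 to 0.848 for GRMZM2G427097. GRMZM2G053669 could not be tested with a minimum of 5 FPKM. Adding a replicate block raised the called loci to 617, again with no member (GRMZM2G053669 adjusted p = 0.108). Of the neighbouring lists it called 3 alanine aminotransferases, 3 genes of aspartate family synthesis, 2 each of glutamate decarboxylase and nitrate metabolism, and 1 each of aspartate aminotransferase, glutamine synthetase and senescence (see2b). Deviations of same-numbered libraries had a correlation of 0.203 across loci, and no label states that the numbers pair the libraries, so they share only a number. The members below 1 FPKM are limited by depth, which is unknown in fragments.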

Other observations

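Glutamate dehydrogenase is often read beside genes of leaf ageing, so a short list of these was examined as well. Of its 6 rows 4 were tested, all 4 were higher in both LN libraries, as were 26.6% of all tested loci. Their median log2 fold change was 1.35, against -0.01 over all tested loci, and limma called none of them without a replicate block. The legumain gene see2b had 190 and 520 FPKM in HN and 1571 and 1737 FPKM in LN (log2 fold change 2.39, limma adjusted p = 0.130). The genes see1 and SGR2 were named after their values were seen. The cysteine protease gene see1 had 840 and 743 FPKM in HN and 2425 and 1546 FPKM in LN (log2 fold change 1.29, adjusted p = 0.149). The smallest difference was at see2a (log2 fold change 0.21, adjusted p = 0.637). The stay-green gene SGR2 had 2.71 and 7.10 FPKM in HN and 8.59 and 20.8 FPKM in LN, while the 2 rows of SGR1 did not pass 0.0483 FPKM.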
